A study of Mus musculus with 6 samples.

Results

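Angiopoietins and angiopoietin-like proteins are secreted proteins, most of which share a coiled-coil region and a fibrinogen-like domain. They were examined here together with *Vegfa*, the main growth factor for endothelial cells, in activated fibroblasts of the pressure-overloaded mouse heart. The 7 genes are *Angpt1*, *Angpt2*, *Angptl1*, *Angptl2*, *Angptl4*, *Angptl7* and *Vegfa*, out of 28987 genes in the deposited table. They were taken by gene symbol and chosen from their families with the group comparison of these same libraries already known, so the differences given for them are a description and not independent evidence. All 7 passed the filter that kept 15109 genes for testing, a mean of at least 1 in the table's linear unit over the 6 libraries. Other family members in the table, *Angpt4*, *Angptl6* and *Angptl8*, are described separately.

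The libraries are RNA-seq of EGFP+ cells sorted from cardiac ventricles 4 weeks after transverse aortic constriction (TAC), an operation that narrows the aorta and loads the left ventricle, performed at 8 to 10 weeks of age. The mice of all 6 libraries carried the tamoxifen-activated Cre recombinase MerCreMer knocked into the *Postn* locus and a Cre-dependent eGFP reporter in the *Rosa26* locus, and all received tamoxifen and TAC. Those of the 3 libraries labelled Hsp47-deleted carried Hsp47 flox/flox alleles in addition. Hsp47, encoded by *Serpinh1*, is the collagen chaperone of the endoplasmic reticulum. Because Cre and the sort both depend on *Postn* being switched on, the sort selects for cells that had passed through an activated state. Transcripts of other cell types were present nevertheless, as given below. Cells of unoperated mice and a *Postn*-negative fraction were not analysed here. Control replicates 3 and 4 were sequenced in one run (the first run), whereas control replicate 2 and the 3 libraries labelled Hsp47-deleted were sequenced in another (the second run). The label and the run were therefore only partly separable, so the difference from control replicate 2 alone is also given for the main results, with no test.

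The targeted gene did not separate the labels. *Serpinh1* had log2 values of 7.60, 6.28 and 6.10 in control replicates 2, 3 and 4, against 6.87, 6.67 and 6.66 in the libraries labelled Hsp47-deleted 1, 2 and 3. It was lower than control replicate 2 and higher than the other two controls in each of them, and directions below follow the labels. The table has 1 value per gene and does not separate the deleted exon. Fibroblast transcripts were abundant, with *Dcn* between 12.31 and 13.08 in all libraries. Markers of other cell types were present as well. Summed linear values of 5 erythroid markers were 857, 113 and 20.4 in control replicates 2, 3 and 4. In the libraries labelled Hsp47-deleted they were 218 to 475. Those of 8 cardiomyocyte markers were 269, 97.3 and 43.3 in the same controls, and 176 to 277 in the others. Their part in the results was not tested. Of 8 leukocyte markers only *Ptprc* was listed at 0 in every library, while *Cd68* had log2 values from 4.33 to 6.01, and of 7 adipocyte markers only *Plin1* was, while *Fabp4* had values from 3.75 to 8.59. Only 2 of these 7, *Fabp4* and *Retn*, passed the filter. *Postn*, the locus that carries the Cre, had log2 values from 5.86 to 6.12 in the controls, compared with 10.22 to 10.50 in those labelled Hsp47-deleted (limma, log2 fold change 4.41 ± 0.28 SE, BH-adjusted p = 0.00337). Values are log2(value + 1) as deposited, in a linear unit that is not named, so levels of different genes are not ranked against each other. How many reads lie behind a value is not known. All tested genes together had a median log2 fold change of 0.35, not 0.

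Angiopoietin 1 is a ligand of the receptor Tie2 (gene *Tek*) made mostly by perivascular and mesenchymal cells, and it keeps vessels quiescent. Angiopoietin 2 binds the same receptor, often as an antagonist, and is released mainly by endothelial cells. Angiopoietin-like proteins do not bind Tie2 in the classical way and act on other targets, among them lipoprotein lipase, the enzyme that frees fatty acids from circulating triglycerides.

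Among the 7 genes, *Angptl7* and *Angptl4* were higher in every library labelled Hsp47-deleted than in every control. *Angptl7* differed by 2.10 on the log2 scale and was the only one of the 7 with a BH-adjusted limma p under 0.05. Over all tested genes, 0.232% were called higher by this criterion. *Angptl4* differed by 1.57 and was not called. The groups overlapped for the 5 others, with differences from -0.21 for *Angptl1* to 0.52 for *Vegfa*. That 2 of the 7 genes (28.6%) did not overlap and were higher stands beside 18.3% of all tested genes, and the median difference of the 7 was 0.46 beside 0.35 for all. These counts describe genes that were picked with the same contrast in view.

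**Figure D1:**
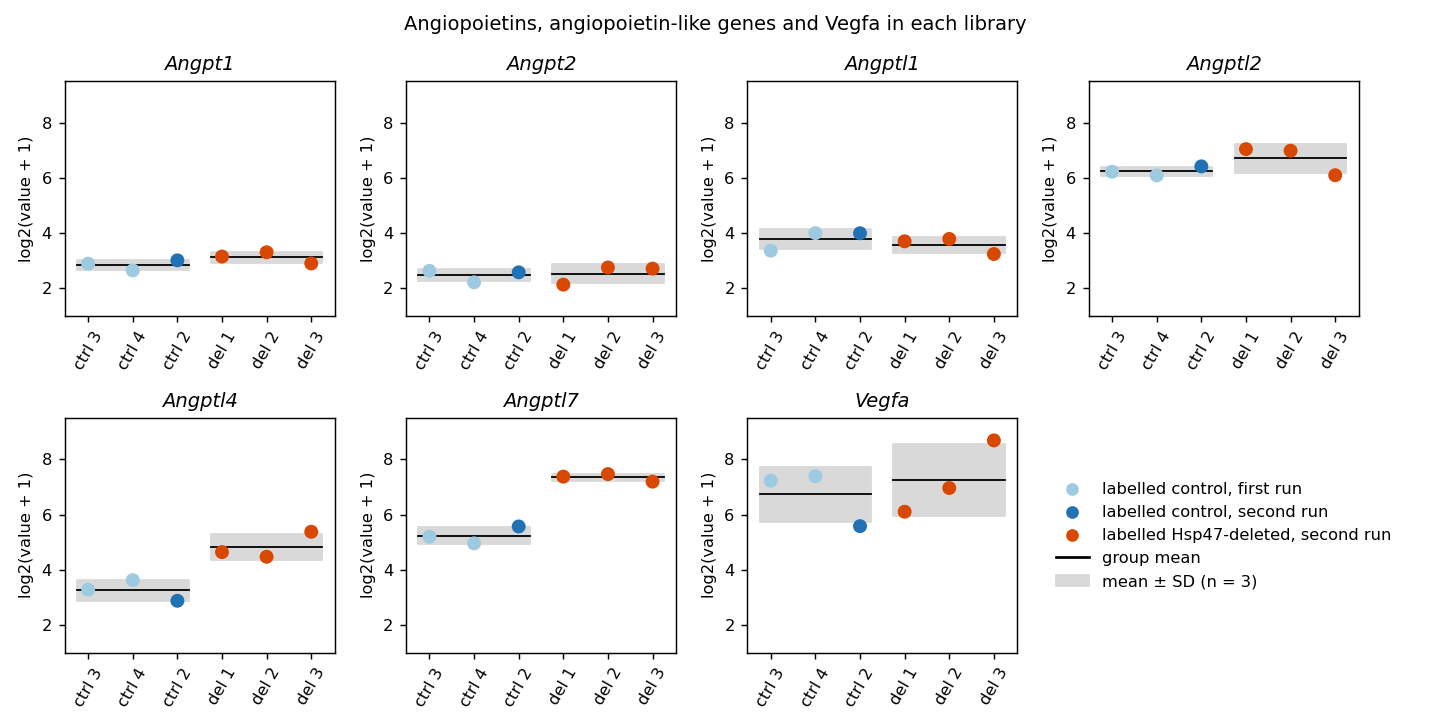
Deposited log2(value + 1) of each of the 7 genes (vertical axis) in the 6 libraries (horizontal axis), with light blue points for controls of the first run, dark blue for the control of the second run and orange for the libraries labelled Hsp47-deleted. Black lines are group means and grey bands the mean ± SD of 3 libraries. *Angptl7* and *Angptl4* show no overlap, and *Vegfa* ranges from 5.58 to 8.68.

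*Angptl7* encodes a secreted protein best known from the cornea and the trabecular meshwork of the eye. Its log2 values were 5.57, 5.20 and 4.96 in control replicates 2, 3 and 4, against 7.37, 7.46 and 7.19 in the libraries labelled Hsp47-deleted 1, 2 and 3. The lowest of the latter thus lay above the highest control, and all 3 lay within a narrow range. In linear values, the controls had 46.5, 35.6 and 30.1 and the others 164, 175 and 145, a ratio of means of 4.32. The controls averaged 5.24 ± 0.31 (SD, n = 3) and the other group 7.34 ± 0.14 (SD, n = 3), which gives a log2 fold change of 2.10 ± 0.29 (SE, limma, BH-adjusted p = 0.0485) and places *Angptl7* 28th among the tested genes by p. Against control replicate 2 alone the difference was 1.77, where the median of all tested genes was 0.29. With each library centred on its median the difference was 1.68 and no longer called (limma, BH-adjusted p = 0.120), and over 16 alternative fits the adjusted p ranged from 0.00302 to 0.400 and was under 0.05 in 3. The lowest of these p-values came without control replicate 2, where run and label coincide. There, *Angptl7* and *Angptl4* were both called, as were 16.4% of all tested genes in the higher direction.

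*Angptl7* (ENSMUSG00000028989) lies on chromosome 4 from 148495183 to 148500460 on the minus strand (GRCm38, GENCODE release M21), wholly inside *Mtor*, the gene of the growth-regulating kinase mTOR, which runs on the opposite strand. None of its 2157 exonic bases coincided with an exon of *Mtor*. The library protocol in the labels states no strand-specific step, so reads from an intron of the host's precursor RNA and reads of the nested gene cannot be told apart where they cover the same bases. *Mtor* had log2 values of 3.40, 2.28 and 3.15 in control replicates 2, 3 and 4, against 3.84, 3.76 and 3.42 in those labelled Hsp47-deleted (limma, log2 fold change 0.73 ± 0.38 SE, BH-adjusted p = 0.381). The host was thus also higher in the latter without overlap, by less than *Angptl7*, and its part in the value of *Angptl7* was not tested. The summed linear level of 9 fibroblast markers moved in the same direction, with none of the 9 at 0. Controls had 9188 to 14986, compared with 15941 to 19786 for those labelled Hsp47-deleted. *Postn* is among the 9. Control replicate 2 had the highest control sum and a linear *Postn* value of 68.5. Hsp47-deleted replicate 3 had the lowest sum of the others and a *Postn* value of 1317. Without *Postn* these 2 libraries would change order, so the groups would overlap. *Lum*, another of the 9, differed by -0.11, and the 8 others were higher. The summed linear level of 8 leukocyte markers was 30.6 to 88.7 for controls, against 95.3 to 121 for the others, with *Ptprc* listed at 0 in every library. Of these 8, 6 were tested, and the groups overlapped for each of them. Their median log2 fold change was 1.09, and 0.056 against control replicate 2. The part of either set of markers in the result was not tested.

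The sequences upstream of *Angptl7*, the called gene, and of the 2 starts listed for *Vegfa*, the gene that varied most within groups, are shown with the letters of known response elements searched in them. They are the 250 bases before the transcription start in RefSeq (GRCm38.p6), written 5′ to 3′ on the gene's own strand, with matches in capitals. The motifs searched on both strands were ACGTG and GCGTG (cores of the site of hypoxia-inducible factors), AGGTCA (half-site of nuclear receptors such as PPAR), AGAACA (half-site of the glucocorticoid receptor) and TGACTCA (the AP-1 site).
Angptl7, chr4:148500463-148500712, minus strand: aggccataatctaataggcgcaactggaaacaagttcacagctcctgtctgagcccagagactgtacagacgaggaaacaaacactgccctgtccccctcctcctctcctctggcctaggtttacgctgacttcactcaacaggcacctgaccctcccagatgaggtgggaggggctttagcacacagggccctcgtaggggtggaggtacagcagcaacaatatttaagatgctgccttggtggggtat
Vegfa, chr17:46032378-46032627, minus strand: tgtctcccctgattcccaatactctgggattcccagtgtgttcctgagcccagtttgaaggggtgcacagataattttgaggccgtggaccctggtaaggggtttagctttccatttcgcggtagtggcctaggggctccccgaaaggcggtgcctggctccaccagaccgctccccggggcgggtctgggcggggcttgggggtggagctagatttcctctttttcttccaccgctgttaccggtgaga
Vegfa second start, chr17:46025164-46025413, minus strand: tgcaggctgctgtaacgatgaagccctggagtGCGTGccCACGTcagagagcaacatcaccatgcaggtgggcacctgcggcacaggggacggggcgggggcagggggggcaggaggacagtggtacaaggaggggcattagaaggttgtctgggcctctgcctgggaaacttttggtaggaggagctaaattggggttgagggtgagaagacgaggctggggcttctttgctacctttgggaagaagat

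The window of *Angptl7* lies in an intron of *Mtor* and holds none of these motifs. The window of the first *Vegfa* start, which overlaps no annotated gene, holds none either. That of the second start lies within the gene, with 218 of its 250 bases in *Vegfa* exons, and holds GCGTG beginning 218 bases before the start and the reverse complement of ACGTG beginning 211 bases before it. The 2 matches do not overlap. Of the 32851 windows in the RefSeq table, 16.57% held ACGTG, 28.16% GCGTG, 14.02% AGGTCA, 16.08% AGAACA and 4.463% TGACTCA. A match is a run of letters and not a bound site. The windows of *Angptl1* and *Angptl2* held none of the motifs, and *Angpt1*, *Angpt2* and *Angptl4* had no entry.

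*Angptl4* encodes the inhibitor of lipoprotein lipase that is induced by fasting, fatty acids acting through PPARs, glucocorticoids and hypoxia. Its log2 values were 2.88, 3.28 and 3.63 in control replicates 2, 3 and 4, against 4.64, 4.47 and 5.38 in the libraries labelled Hsp47-deleted 1, 2 and 3. No library of one group reached into the other, and Hsp47-deleted replicate 3 was the highest. Linear values were 6.36, 8.71 and 11.4 in the controls and 24.0, 21.2 and 40.5 in the others, a ratio of means of 3.24. The controls averaged 3.26 ± 0.37 (SD, n = 3) and the other group 4.83 ± 0.48 (SD, n = 3), which gives a log2 fold change of 1.57 ± 0.36 (SE, limma, BH-adjusted p = 0.200). Against control replicate 2, the lowest of the 3 controls, the difference was 1.95. Over 16 alternative fits the difference ranged from 1.15 to 1.95 and the adjusted p from 0.0397 to 0.772, under 0.05 only without control replicate 2. *Angptl4* (ENSMUSG00000002289) lies on chromosome 17 from 33773750 to 33781830 on the minus strand and overlaps no other annotated gene. Adipocytes are a rich source of this transcript. Of the 7 adipocyte markers, *Plin1* was listed at 0 in all 6 libraries and *Adipoq* in 4 of 6, whereas *Retn* had log2 values from 0.81 to 1.65. *Cidec*, *Lep* and *Cfd* reached at most 0.81, 0.21 and 0.74 and did not pass the filter. *Fabp4*, which endothelial cells also express, had log2 values of 8.59, 6.55 and 3.75 in control replicates 2, 3 and 4, against 8.48, 8.05 and 6.93 in the libraries labelled Hsp47-deleted. It made up most of the summed linear level of the 7 adipocyte markers, which ranged from 15.9 to 385 in the controls, compared with 123 to 359 in the others. The part of adipocytes in the values of *Angptl4* was not tested.

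The target of *Angptl4* overlapped between the groups. *Lpl*, the gene of lipoprotein lipase, had log2 values of 6.61, 6.60 and 6.72 in control replicates 2, 3 and 4, against 6.65, 6.60 and 6.93 in those labelled Hsp47-deleted (limma, log2 fold change 0.09 ± 0.27 SE, BH-adjusted p = 0.892). It was named after its values were seen. Of 8 genes of the lipoprotein lipase system, 6 were tested and none was called, with a median log2 fold change of 0.69. The smallest p-values were those of *Sel1l*, needed for the exit of the lipase from the endoplasmic reticulum (1.12, limma, BH-adjusted p = 0.348), and *Gpihbp1*, which anchors the lipase on capillary endothelium (1.70, limma, BH-adjusted p = 0.441). Both were also high in control replicate 2, against which the median of the 6 genes was 0.0068.

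Genes that share the known inducers of *Angptl4* were read from lists. Over all tested genes, 74.5% had a positive difference and 14.5% were higher at an unadjusted p under 0.05, and the lists are to be read beside these shares and the overall median of 0.35. Of 12 PPAR target genes none was called, 11 had positive differences, 2 were higher at an unadjusted p under 0.05, and the median log2 fold change was 0.72 (0.11 against control replicate 2). *Pdk4*, the kinase that restrains pyruvate oxidation, had log2 values of 2.94, 1.63 and 1.92 in control replicates 2, 3 and 4, against 3.18, 3.58 and 3.95 in those labelled Hsp47-deleted (difference 1.41, limma, BH-adjusted p = 0.282). *Ech1*, an enzyme of fatty acid oxidation, differed by 1.49 (limma, BH-adjusted p = 0.326) in the pooled comparison and by 0.015 against control replicate 2. Of 10 glucocorticoid-inducible genes none was called, all 10 had positive differences, 4 were higher at an unadjusted p under 0.05 (beside the 14.5% of all tested genes), and the median was 0.94 (0.54 against control replicate 2). *Sgk1*, a kinase of salt and stress responses, had log2 values of 8.43, 8.60 and 8.72 in control replicates 2, 3 and 4, against 9.06, 9.97 and 10.60 in those labelled Hsp47-deleted (difference 1.30, limma, BH-adjusted p = 0.283). *Per1*, a clock gene, differed by 1.28 (limma, BH-adjusted p = 0.282), with 0.62 against control replicate 2.

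*Vegfa* was the most variable of the 7 genes within groups. Its log2 values were 5.58, 7.22 and 7.38 in control replicates 2, 3 and 4, against 6.10, 6.96 and 8.68 in the libraries labelled Hsp47-deleted 1, 2 and 3. The groups overlapped. The lowest control was that of the second run, and the 2 controls of the first run lay above 2 of the 3 libraries labelled Hsp47-deleted. In linear values the range was from 46.8 in control replicate 2 to 409 in Hsp47-deleted replicate 3. The controls averaged 6.73 ± 1.00 (SD, n = 3) and the other group 7.25 ± 1.31 (SD, n = 3), which gives a log2 fold change of 0.52 ± 0.73 (SE, limma, BH-adjusted p = 0.745). Against control replicate 2 the difference was 1.67, whereas without control replicate 2 it was -0.057 and without Hsp47-deleted replicate 3 it was -0.20. No direction for *Vegfa* therefore held in all of these comparisons. *Vegfa* (ENSMUSG00000023951) lies on chromosome 17 from 46016993 to 46032369 on the minus strand, has 13 annotated transcripts that the table does not separate, and overlaps no other gene.

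**Figure D2:**
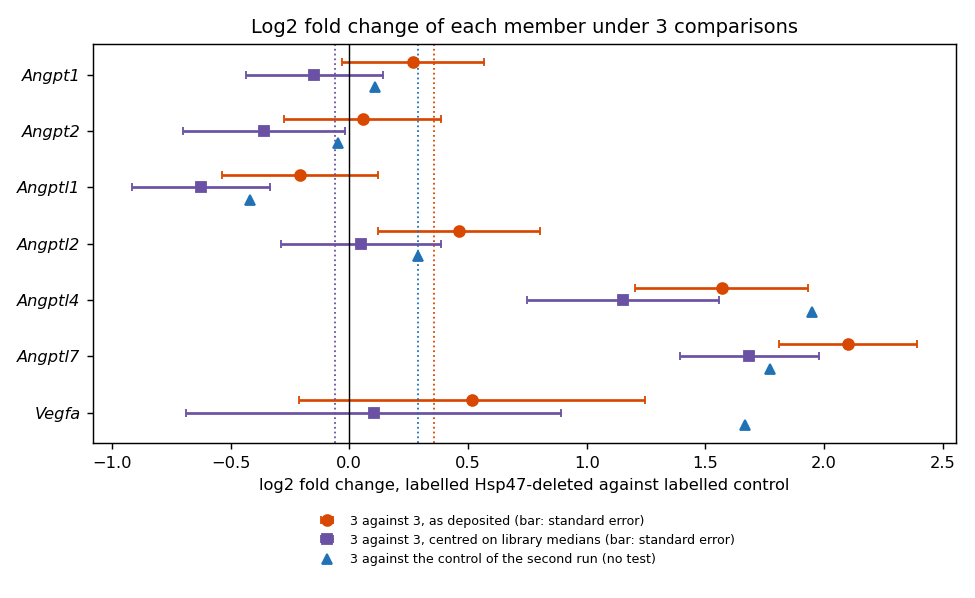
Log2 fold change of each gene (horizontal axis, libraries labelled Hsp47-deleted against those labelled control) for all 6 libraries as deposited (orange), after centring on library medians (purple) and with control replicate 2 as the only control (blue, no test). Bars are standard errors from limma, and dotted lines mark the median of all tested genes in the same comparison. *Angptl7* and *Angptl4* lie right of 1 in all 3, and *Vegfa* moves from 0.52 to 1.67.

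*Vegfa* is a classical hypoxia-inducible gene. Of 14 others none was called, 13 had positive differences, beside 74.5% of all tested genes, none had an unadjusted p under 0.05, and the median log2 fold change was 0.46 (0.47 against control replicate 2). *Adm*, the vasodilator adrenomedullin, had log2 values of 3.22, 2.54 and 3.00 in control replicates 2, 3 and 4, against 3.76, 3.50 and 3.62 in those labelled Hsp47-deleted (difference 0.71, limma, BH-adjusted p = 0.334). *Ddit4*, a stress-induced inhibitor of mTORC1, differed by 0.97 (limma, BH-adjusted p = 0.341). *Ndrg1*, a stress-responsive gene of the list, had values of 5.91, 7.30 and 7.61 in control replicates 2, 3 and 4, against 6.05, 6.83 and 8.92 in the libraries labelled Hsp47-deleted, the order of *Vegfa*. Of the transcription factors upstream of these genes, 9 were tested and none called, with a median of 0.27. The 2 smallest p-values were those of *Rxra*, the partner of PPARs (0.96, limma, BH-adjusted p = 0.318), and *Nr3c1*, the glucocorticoid receptor (0.65, limma, BH-adjusted p = 0.390). Against control replicate 2, *Rxra* differed by 0.35 and *Nr3c1* by 0.0052.

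The angiopoietins themselves were low and overlapped between groups. *Angpt1* had log2 values of 3.02, 2.89 and 2.65 in control replicates 2, 3 and 4, against 3.15, 3.31 and 2.90 in the libraries labelled Hsp47-deleted 1, 2 and 3 (limma, log2 fold change 0.27 ± 0.30 SE, BH-adjusted p = 0.676). Hsp47-deleted replicate 3 lay among the controls. The difference was below the shift of all genes and turned to -0.15 after centring. *Angpt2* had log2 values of 2.58, 2.64 and 2.22 in control replicates 2, 3 and 4, against 2.14, 2.76 and 2.71 in those labelled Hsp47-deleted (limma, log2 fold change 0.06 ± 0.33 SE, BH-adjusted p = 0.947). Its lowest and highest values both came from libraries labelled Hsp47-deleted. It also changed sign after centring, to -0.36. The log2 value of *Angpt1* minus that of *Angpt2* in the same library was 0.37 ± 0.10 (SD, n = 3) in the controls and 0.59 ± 0.42 (SD, n = 3) in the others, a difference smaller than the spread of the latter. This is a contrast within a library and not a ratio of molecules. Of 7 markers of mural (perivascular) cells, 5 had negative and 2 positive differences, with a median of -0.42, and none was called. Their summed linear level was 219, 290 and 168 in control replicates 2, 3 and 4. In those labelled Hsp47-deleted it was 111 to 172. The part of mural cells in the values of *Angpt1* was not tested.

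*Angpt1* (ENSMUSG00000022309) lies on chromosome 15 from 42424723 to 42676977 on the minus strand, and 737 of its 5205 exonic bases (14.2%) coincide with exons of the antisense gene *Gm17473*, which has no row in the table. *Angpt2* (ENSMUSG00000031465) lies on chromosome 8 from 18690263 to 18741562 on the minus strand, inside *Mcph1*, a gene of brain growth and the DNA damage response. No exonic base was shared with *Mcph1*, whose log2 values ranged from 1.98 to 3.19 in the controls, compared with 1.63 to 2.56 in those labelled Hsp47-deleted.

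The receptors and partners of the angiopoietins all passed the filter, and none of the 6 was called. *Tek*, the receptor Tie2, had log2 values of 6.10, 6.17 and 5.61 in control replicates 2, 3 and 4, against 5.85, 5.38 and 5.55 in those labelled Hsp47-deleted (limma, log2 fold change -0.37 ± 0.30 SE, BH-adjusted p = 0.555). *Tie1*, its co-receptor, differed by 0.58 and *Ptprb*, the phosphatase that dampens Tie2 signaling, by 0.25, and both were highest in control replicate 2. *Itga5* and *Itgb1*, the subunits of the integrin α5β1 that binds several of these ligands, differed by -0.046 and 0.31. *Svep1*, a large matrix protein linked to Tie receptor signaling, had log2 values of 5.56, 5.40 and 5.46 in control replicates 2, 3 and 4, against 6.17, 6.61 and 6.41 in those labelled Hsp47-deleted (limma, log2 fold change 0.93 ± 0.27 SE, BH-adjusted p = 0.278). Its groups did not overlap, and those of the 5 others did, beside 18.3% of all tested genes that were higher without overlap.

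Among the other VEGF ligands and receptors, 9 genes were tested, all 9 differences were positive (beside 74.5% over all tested genes) and none was called, with a median of 0.32 that was below the 0.35 of all genes. *Pgf*, placental growth factor, had log2 values of 2.99, 1.79 and 1.72 in control replicates 2, 3 and 4, against 3.32, 3.22 and 3.74 in those labelled Hsp47-deleted (limma, log2 fold change 1.26 ± 0.42 SE, BH-adjusted p = 0.283). *Vegfb* differed by 1.08 (limma, BH-adjusted p = 0.352), and the lymphatic factors *Vegfc* and *Vegfd* by 0.32 and 0.070. Against control replicate 2, *Pgf*, *Vegfb*, *Vegfc* and *Vegfd* differed by 0.44, 0.29, 0.48 and -0.39. The receptors *Kdr*, *Flt1* and *Flt4* differed by 0.78, 0.74 and 0.17 in the pooled comparison and by -0.89, -0.29 and -0.014 against control replicate 2. The co-receptors *Nrp1* and *Nrp2* differed by 0.14 and 0.32, and by -0.32 and 0.79 against control replicate 2. In these bulk samples a change in the number of endothelial cells and a change in RNA per cell cannot be told apart. The summed linear level of 10 endothelial markers, *Tek*, *Tie1* and *Kdr* among them, was 274, 152 and 95.8 in control replicates 2, 3 and 4 and 173 to 266 in those labelled Hsp47-deleted, and none of the 10 was at 0 in all libraries. Its part in the values of the receptors was not tested.

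Over the 8 lists of related genes together, 66 genes were tested and none was called by limma at a BH-adjusted p under 0.05. At an unadjusted p under 0.05, 9 of the 66 (13.6%) were higher and 0 lower, beside 14.5% of all tested genes that were higher. In 11 of the 66 (16.7%) the groups did not overlap with the libraries labelled Hsp47-deleted higher, beside 18.3% of all.

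*Angptl2*, a secreted factor linked to chronic inflammation and tissue remodeling, had log2 values of 6.41, 6.22 and 6.09 in control replicates 2, 3 and 4, against 7.04, 6.98 and 6.09 in the libraries labelled Hsp47-deleted 1, 2 and 3. Replicates 1 and 2 lay above all controls and replicate 3 at the level of the lowest control. The controls averaged 6.24 ± 0.16 (SD, n = 3) and the other group 6.70 ± 0.53 (SD, n = 3), which gives a log2 fold change of 0.46 ± 0.34 (SE, limma, BH-adjusted p = 0.516). After centring the difference was 0.048, where the median of all tested genes was -0.060. *Angptl2* (ENSMUSG00000004105) lies on chromosome 2 from 33216069 to 33247717 on the plus strand, inside *Ralgps1*, a guanine exchange factor gene on the opposite strand with which it shares no exonic base. *Ralgps1* had log2 values from 2.01 to 2.10 in the controls, compared with 2.37 to 2.47 in the others.

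*Angptl1*, which is known as an inhibitor of vessel sprouting, was the only one of the 7 with a negative difference. Its log2 values were 4.00, 3.37 and 4.00 in control replicates 2, 3 and 4, against 3.70, 3.79 and 3.24 in the libraries labelled Hsp47-deleted 1, 2 and 3. The groups overlapped, since control replicate 3 lay below Hsp47-deleted replicates 1 and 2. The controls averaged 3.79 ± 0.36 (SD, n = 3) and the other group 3.58 ± 0.29 (SD, n = 3), which gives a log2 fold change of -0.21 ± 0.33 (SE, limma, BH-adjusted p = 0.775). Its difference stayed negative over 16 alternative fits, from -0.62 to -0.041, and was called in none. *Angptl1* (ENSMUSG00000033544) lies on chromosome 1 from 156838562 to 156861078 on the plus strand, inside *Ralgps2*, the paralog of the host of *Angptl2*. It shares no exonic base with *Ralgps2*, whose log2 values were under 1 in every library, but 465 of its 2841 exonic bases (16.4%) coincide with *Gm37802* on the opposite strand, which has no row in the table.

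In this annotation 4 of the 7 genes lie wholly inside a protein-coding gene on the opposite strand, as do 2.47% of 22028 protein-coding genes. For none of the 4 did an exon of the host coincide with an exon of the nested gene. The hosts *Mtor* and *Ralgps1* were higher without overlap in the libraries labelled Hsp47-deleted, by 0.73 and 0.40, and neither was called. This stands beside 18.3% of all tested genes that were higher without overlap. *Mcph1* was lower, by -0.49, and its groups overlapped. Those of *Ralgps2*, which did not pass the filter, overlapped as well.

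These other family members were near the lower limit of the table. *Angpt4* and *Angptl6* did not pass the filter, with log2 values up to 0.70 and 1.22. *Angptl8*, which acts with other family members on lipoprotein lipase, is listed under the older symbol *Gm6484*. Its log2 values were 0.79, 0.35 and 1.26 in control replicates 2, 3 and 4, against 0.88, 1.05 and 3.06 in the libraries labelled Hsp47-deleted 1, 2 and 3 (limma, log2 fold change 0.86 ± 0.61 SE, BH-adjusted p = 0.501). The difference rested on replicate 3, the library in which *Angptl4* and *Vegfa* were also highest.

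The genes most like each of the 7 were found by the root mean square (RMS) difference of log2 values over the 6 libraries, after each gene was centred on its own mean, among 12597 tested genes with an established name. Nearest to *Angptl7* were *Tnnt3*, a troponin of fast skeletal muscle (RMS 0.14), and the collagen genes *Col8a2* (0.19) and *Col22a1* (0.19). *Col22a1* had log2 values of 2.46, 2.30 and 1.99 in control replicates 2, 3 and 4, against 4.61, 4.74 and 4.68 in the libraries labelled Hsp47-deleted. Nearest to *Angptl4* were *Sun2*, of the nuclear envelope (0.19), *D2Wsu81e* (0.21) and *Grin3b*, a glutamate receptor subunit (0.21). Nearest to *Vegfa* were *Sesn2*, a stress-induced sestrin (0.11), *Yars*, a tRNA synthetase (0.11), and *Ndrg1* (0.16). Since neighbours were chosen on these same 6 libraries, they repeat the pattern of their gene by construction. Those of *Angptl7* separate the labels as it does. The low control replicate 2 and the high Hsp47-deleted replicate 3 of *Vegfa* recur in all 3 of its neighbours. Around the 4 genes with little spread, the RMS ran from 0.046 for *Igsf10* to 0.055 for *Slc39a13* around *Angpt1*, with *Dnmt3a* (0.053) between. It was 0.054 to 0.12 for *Dusp14*, *Pawr* and *Slc7a8* around *Angpt2*, 0.081 to 0.092 for *Tmem69*, *Gstm7* and *Lipa* around *Angptl1*, and 0.060 to 0.073 for *Dph3*, *Farp1* and *Tmem8b* around *Angptl2*.

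**Figure D3:**
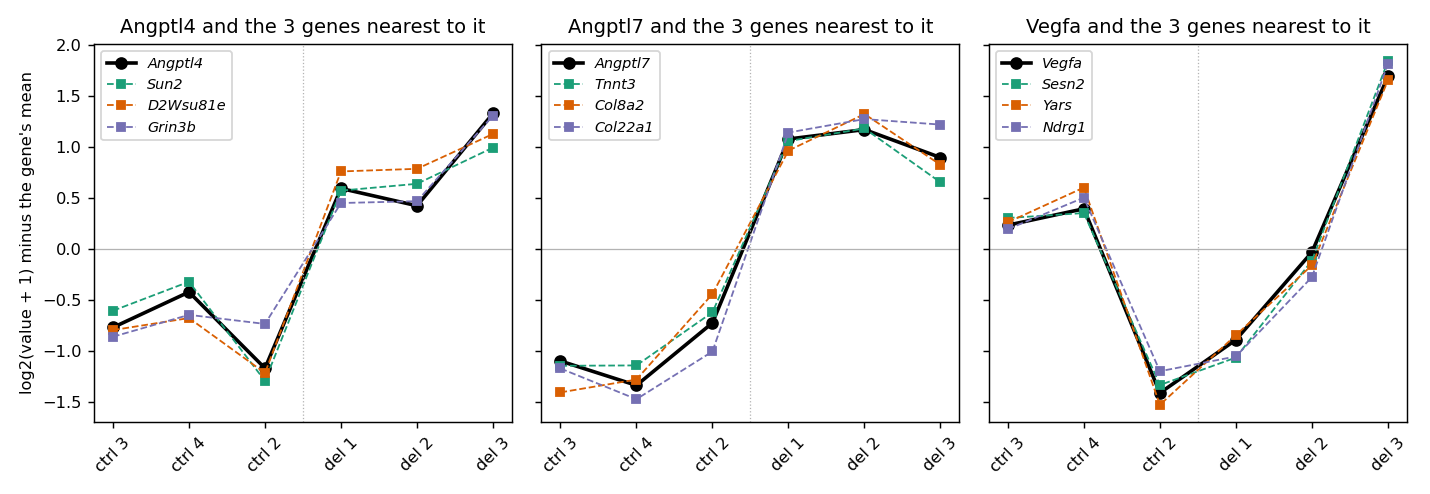
Log2(value + 1) minus the gene's own mean over the libraries (vertical axis) for *Angptl4*, *Angptl7* and *Vegfa* (black) and the 3 genes nearest to each (colours) in the 6 libraries (horizontal axis). Lines join the values of a gene only to guide the eye, as replicates have no order. By the way they were chosen the neighbours share the pattern of their gene. Those around *Angptl7* separate the labels, and those around *Vegfa* have their lowest value in control replicate 2.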

How the data were processed

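RNA-seq of EGFP+ ventricular cells was analysed from 3 libraries labelled control and 3 labelled Hsp47-deleted. RNA was amplified (Ovation RNA-Seq System v2) and tagmented (Nextera XT). The authors deposited log2(value + 1) per gene. The submitters' processing notes name kallisto and mm10 and the paper names AltAnalyze, whereas the linear unit is not given in the sources used here. Undone, the values summed to between 690499 and 855404 per library and held fractions, so the depth is unknown, no interval that needs it is given, and count models were not used. The authors' group averages and their own comparison columns were not used.

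Genes with a linear mean of at least 1 over the 6 libraries were kept (15109 of 28987). The group comparison used limma 3.58.1 under R 4.3.3 (eBayes after lmFit, mean-variance trend on, no covariate), with Benjamini-Hochberg (BH) adjustment over all tested genes. The fit was checked on simulated data with independent noise for each gene and library. That simulation had no run effect and no shift of all genes, so it does not cover these features of the libraries. Fold changes on the log2(value + 1) scale understate those of low genes. An exact permutation test of 3 against 3 cannot go below 0.10. Replicates are separate samples by the labels, which do not say whether each is 1 mouse, so p-values measure the spread between these samples.

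The members, gene lists and alternatives were chosen with earlier results of these data known. Named were all members, other family members (1 item of that list is not reported here), *Serpinh1*, *Postn*, all listed receptors and VEGF genes, the 2 genes of smallest p in each other pathway list, and the 3 genes nearest to each member. *Lpl*, *Dcn*, *Cd68*, *Fabp4*, *Retn*, *Cidec*, *Lep*, *Cfd* and the host genes were added to the named genes once their values were known. Symbols were matched with the table's Ensembl identifiers where it uses an older symbol. Positions are from GENCODE M21 (GRCm38). Promoters, from RefSeq (GRCm38.p6), were given for 4 of the 7 members. Alternatives were sequencing run as a covariate, the second run alone, the replicate number as a block, other filters, pseudocounts of 0.1 and 5, quantile normalization, median centring, limma without the trend or with robust estimation (statmod 1.5.0), and leaving out each library. Centring within the second run was added after seeing the data.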

Additional observations from a re-analysis of the deposited data

How the results depend on the processing

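*Angptl7* and *Angptl4* kept a positive difference under every alternative run, from 1.53 to 2.26 and from 1.15 to 1.95, whereas the call of *Angptl7* was close to the threshold. The number of the 7 genes called was 1 as reported and 0 with sequencing run as a covariate, no filter, pseudocounts of 0.1 or 5, quantile normalization, median centring or limma without the trend. Leaving out 1 library gave from 0 to 2 called members, from 8 to 2768 called genes of all tested (37 as reported) and from 0 to 9 in the pathway lists, the highest each time without control replicate 2, when run and label coincide. With sequencing run as a covariate, 50 genes were called over all tested, 18 higher and 32 lower against 35 higher and 2 lower as reported, and 19 of the 50 were among the 37. All genes called fell to 16 with a pseudocount of 0.1, 17 with quantile normalization and 18 after centring. Members whose groups did not overlap numbered from 2 to 4 when a library was left out, 4 without Hsp47-deleted replicate 3. Smaller groups separate more readily, and the share of all tested genes was not computed for these sets. These counts therefore cannot be read as a gain.

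The median difference of the 7, 0.463, was 0.29 with run as a covariate and in the second run alone, and from 0.297 to 0.453 without 1 library. It was 0.0611 with quantile normalization, 0.048 after centring and 0.045 in the second run after centring. The median of all tested genes, 0.355 as reported, fell as well. It was 0.288 with run as a covariate, -0.048 with quantile normalization, -0.060 after centring and 0.043 in the centred second run. *Angpt1* turned negative with quantile normalization (-0.148), centring (-0.147) and in the centred second run (-0.139). *Angpt2* did so with the run covariate and in the second run (-0.0461 in both), quantile normalization (-0.358), centring (-0.359) and the centred second run (-0.291), and ranged from -0.0726 to 0.256 without 1 library. *Vegfa* ranged from -0.199 to 1.09 without 1 library. The causes were not tested.

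With the replicate number as a block (the replicate block), 0 members and 0 genes in all were called, the median of the 7 was 0.22, and *Angptl7* differed by 1.94 (limma, BH-adjusted p = 0.400). Only 2 numbers are shared and the labels do not say that they pair mice. Same-numbered libraries deviated together with correlations across genes of 0.16 and 0.23, but control replicate 2 correlated more with Hsp47-deleted replicate 1 (0.38). The depth is unknown, and the lowest values are the least firmly measured. These are those of *Angpt4*, *Angptl6* and *Angptl8* and, among the 7 genes, those of *Angpt2*.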
